A study of Mus musculus with 6 samples.

Results

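The YAP-TEAD and Hippo pathway genes described here are the coactivators Yap1 and Wwtr1 (which encodes TAZ), the transcription factors Tead1, Tead2, Tead3 and Tead4, the kinases Lats1 and Lats2, and the angiomotin-like genes Amotl1 and Amotl2. They were taken by symbol from the deposited gene table, and all 10 were found among its 51912 genes. All 10 also passed the filter on low counts that left 14889 genes for testing. The cells were R1 mouse embryonic stem cells, an established line, grown first in 2iLIF, a medium that holds the naive state with kinase inhibitors and the cytokine LIF. They were then moved to the serum-free medium N2B27, to which 100 ng/ml of the growth factor FGF2 was added, and collected after 24 h (3 libraries) or 48 h (3 libraries). All 6 libraries therefore share the line, the new medium and FGF2, and the deposited gene table holds no library from another condition. Time with FGF2 and time in the new medium cannot be told apart.

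In the Hippo pathway a chain of kinases ends in LATS1 and LATS2, which phosphorylate YAP and TAZ and so keep them in the cytoplasm and mark them for degradation. When the chain is quiet, YAP and TAZ enter the nucleus and drive transcription by binding TEAD factors, since neither coactivator binds DNA itself. Angiomotin family proteins hold YAP and TAZ at junctions and actin and help to activate LATS kinases. In the early mouse embryo this pathway separates outer cells, where TEAD4 with YAP starts the trophectoderm program, from inner cells, which give rise to embryonic stem cells. These activities act largely on proteins, which mRNA levels do not show.

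The libraries held between 19574969 and 23133148 estimated counts. Rank correlations of log2 CPM were at least 0.9965 between libraries of the same time and at most 0.9754 between times, and replicate pairs differed by more than counting noise (chi-square of 1.82 to 2.22 per degree of freedom). Nothing in the labels tells whether replicates were grown as separate cultures, so the p-values measure the spread between these libraries, which may be technical. Of the labelled cell type, all 8 pluripotency markers were tested, and 3 rose and 5 fell. Their summed level was 4391 to 4491 CPM at 24 h and 2992 to 3095 CPM at 48 h. The largest falls were in the naive-state genes Zfp42 (1034 and 495 CPM), Nanog (695 and 174 CPM) and Esrrb (569 and 205 CPM). Sox2 (403 and 312 CPM) and Pou5f1 (1111 and 1058 CPM), a marker of naive and later pluripotent cells, also fell. Sall4 (302 and 352 CPM), Utf1 (202 and 305 CPM) and Dppa4 (122 and 158 CPM) rose. CPM is the count of a gene relative to its library total, which was scaled by the TMM method.

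Of the 10 genes, 7 passed the test between 24 h and 48 h (quasi-likelihood test of edgeR, Benjamini-Hochberg adjusted p below 0.05), 4 upward and 3 downward. Yap1, Tead2, Lats1 and Amotl2 rose, and Wwtr1, Tead4 and Lats2 fell. A change was common in these data, since 62.8% of all tested genes were called, 30.9% as higher at 48 h and 31.9% as lower, so the share of members called was near that background. The median log2 fold change of the 10 genes was -0.003, and that of all tested genes was -0.01. Leaving out each library in turn moved the member median between -0.04, with replicate 2 of 24 h left out, and 0.07, with replicate 1 of 24 h left out. Tead4 was the member that changed at least 2-fold, as did 11.2% of tested genes. The values of the 24 h and 48 h libraries did not overlap for 8 members, where 66.9% of tested genes showed no overlap.

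**Figure D1:**
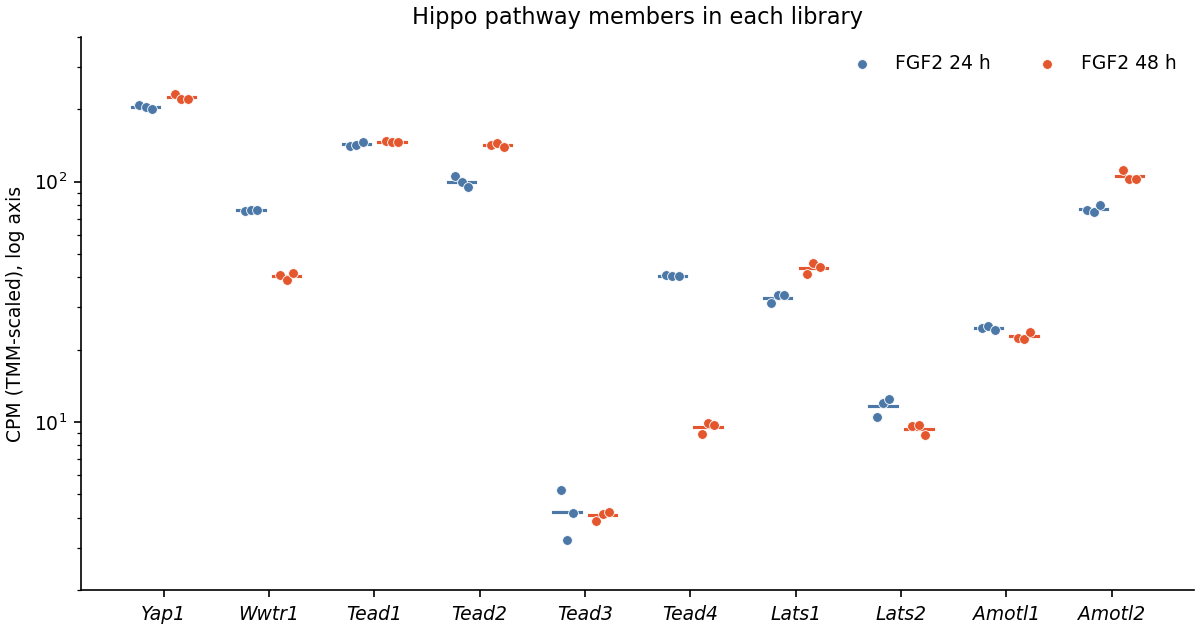
Level of each of the 10 genes in every library, in TMM-scaled CPM on a log axis. Each point is a library, and each line the mean of 3 libraries. Tead4 stands at 40.4 to 40.8 CPM at 24 h and at 8.93 to 9.87 CPM at 48 h, the widest separation of any member, while the points of Tead1 and of Tead3 overlap between the times.

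The coactivators moved in opposite directions. Yap1 (ENSMUSG00000053110) lies on chromosome 9 at 7931999 to 8004596, minus strand, in GRCm38 with GENCODE M21 annotation. Its level was 209, 204 and 200.4 CPM in the 24 h libraries and 232, 220 and 220.4 CPM in the 48 h libraries. Every 48 h library was above every 24 h library, by a small margin, and Yap1 was more abundant than 93.6% of tested genes. The log2 fold change was 0.13 ± 0.025 (SE; adjusted p = 0.00023, edgeR). With library size as the only scaling it was 0.07 (adjusted p = 0.0219), still called. The change was small, since 27.5% of tested genes changed less than Yap1.

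Wwtr1 (ENSMUSG00000027803; chromosome 3, 57455649 to 57575910, minus strand) encodes TAZ, the paralog of YAP. It stood at 75.6, 75.9 and 75.9 CPM at 24 h and at 41.0, 38.9 and 41.9 CPM at 48 h. The 24 h libraries were nearly equal, and all of them lay far above the 48 h libraries. The log2 fold change was -0.90 ± 0.037 (SE; adjusted p = 1.83e-12, edgeR), a 1.87-fold decrease. Of all tested genes, 86.5% changed less than Wwtr1.

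Within each library the log2 ratio of Yap1 to Wwtr1 CPM was 1.46, 1.42 and 1.40 at 24 h and 2.496, 2.49 and 2.39 at 48 h. The ratio thus rose 2.05-fold, with no overlap between the times. The exact two-sided permutation p was 0.1, which is the lowest that 3 libraries against 3 can reach, and the adjusted p over the 6 paralog ratios examined was 0.1. Levels of different genes were compared per kilobase of exon, scaled to the same total in every library. On that scale Yap1 made up 58.2% ± 0.52 of the Yap1 and Wwtr1 sum in the 24 h libraries and 74.0% ± 0.78 in the 48 h libraries (SD, n = 3 each). The sum itself was 118.5 ± 1.33 at 24 h and 100.8 ± 2.81 at 48 h in this unit. These shares depend on the length assumed for Yap1. With the longest protein-coding transcript in place of the union of exons they were 75.2% and 86.1%. The sum was then 174.7 ± 2.69 at 24 h and 163.6 ± 4.76 at 48 h, a smaller fall.

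Promoter sequence is shown for the coactivator genes because they are paralogs whose mRNA moved in opposite directions and because each holds the TEAD core motif, GGAATG or its reverse complement CATTCC. The sequences are from RefSeq, build GRCm38.p6, and give the 250 bases before the start site, 5′ to 3′ on the gene's strand, with the motif in capitals. The Yap1 stretch is chr9:8004597-8004846 and the Wwtr1 stretch is chr3:57575911-57576160, both on the minus strand. Their G and C content is 76.4% and 61.6%.
Yap1: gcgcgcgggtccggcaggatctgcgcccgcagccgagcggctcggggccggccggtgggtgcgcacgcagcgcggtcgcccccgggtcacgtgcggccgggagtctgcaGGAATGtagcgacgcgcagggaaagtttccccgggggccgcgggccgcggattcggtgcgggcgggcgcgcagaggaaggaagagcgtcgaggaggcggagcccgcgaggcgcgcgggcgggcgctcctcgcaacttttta
Wwtr1: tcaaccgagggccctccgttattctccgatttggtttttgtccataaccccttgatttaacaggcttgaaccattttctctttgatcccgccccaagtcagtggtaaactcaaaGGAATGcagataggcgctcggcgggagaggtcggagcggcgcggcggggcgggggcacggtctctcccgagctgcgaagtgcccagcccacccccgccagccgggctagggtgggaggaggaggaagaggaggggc

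The match begins 141 bases before the Yap1 start site and 136 bases before that of Wwtr1. Promoter windows of 300 bases (250 before and 50 after a start site) were found for 8 of the 10 genes, and 5 of these genes (Yap1, Wwtr1, Tead3, Lats2 and Amotl2) held the motif on either strand in at least 1 window. Over all 27025 genes with a window the share was 16.6%, and over the 32851 windows it was 14.7%. Lats1, Tead2 and Amotl1 had no match in their windows. The sites of the other genes are shown with 10 bases on either side, on the gene's strand, to set them beside those of the coactivators. Tead3 has several start sites in RefSeq, and 2 of its 4 printed stretches overlap, though the matches in them do not. Counted from the start site of the window as 0, the match begins at -65 in Amotl2, at 4 in Lats2 and at 2, -114, -123 and -182 in Tead3, and these start sites are not the gene starts of GENCODE M21. The stretches are Amotl2 at chr9:102717729-102717754 (plus strand), Lats2 at chr14:57746104-57746129 (minus strand), and Tead3 at chr17:28350583-28350608, chr17:28350699-28350724, chr17:28350708-28350733 and chr17:28350972-28350997 (minus strand).
Amotl2: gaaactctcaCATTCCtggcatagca
Lats2: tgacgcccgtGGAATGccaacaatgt
Tead3 at 2: gtaagcccggGGAATGcaactcggag
Tead3 at -114: tcattccgtaCATTCCggccatcccc
Tead3 at -123: cggccgggctCATTCCgtacattccg
Tead3 at -182: cgacgagcgaGGAATGgggtgcgcgg

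The genes with a match did not share a direction of change. Yap1 and Amotl2 rose, Wwtr1 and Lats2 fell, and Tead3 was not called. A match describes letters in a window and says nothing about binding in these cells.

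Among the TEAD factors, which bring YAP and TAZ to DNA, Tead4 fell and Tead2 rose, while Tead1 and Tead3 were not called. Tead4 (ENSMUSG00000030353; chromosome 6, 128224288 to 128300823, minus strand), known for its part in trophectoderm formation, had 40.8, 40.5 and 40.4 CPM at 24 h. At 48 h it had 8.93, 9.87 and 9.70 CPM. Each group was tight and the gap between them was wide, with 815 to 954 counts a library at 24 h and 194 to 216 at 48 h. The log2 fold change was -2.09 ± 0.0575 (SE; adjusted p = 1.18e-14, edgeR), a 4.27-fold decrease, and 97.5% of tested genes changed less. Across the 14 alternative fits it ranged from -2.15 to -2.05.

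Tead2 (ENSMUSG00000030796; chromosome 7, 45215753 to 45233644, plus strand) encodes a TEAD factor expressed from the first stages of mouse development. Its level was 105.8, 99.5 and 94.5 CPM at 24 h and 142, 145 and 139 CPM at 48 h. All 48 h libraries were above all 24 h libraries. The log2 fold change was 0.51 ± 0.035 (SE; adjusted p = 1.91e-09, edgeR). Its exons share 13 bases with Cd37 on the opposite strand, a gene that had 132 to 185 counts at 24 h and 41 to 54 at 48 h, far fewer than the 2037 to 3170 of Tead2.

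Tead1 (ENSMUSG00000055320; chromosome 7, 112679318 to 112906807, plus strand) had 140.4, 142 and 147 CPM at 24 h and 147, 146 and 146 CPM at 48 h. The groups overlapped. The log2 fold change of 0.03 was not called (adjusted p = 0.258, edgeR), and its 95% confidence interval ran from -0.02 to 0.09. Tead3 (ENSMUSG00000002249; chromosome 17, 28331671 to 28350817, minus strand) was the least abundant member, at 5.21, 3.22 and 4.196 CPM at 24 h and 3.87, 4.16 and 4.24 CPM at 48 h. Its groups overlapped too, and the 24 h libraries were the more scattered. The log2 fold change was -0.04, with an interval from -0.37 to 0.29 (adjusted p = 0.841, edgeR). Tead3 had 66 to 104 counts a library, and the data do not tell changes within that interval from 0.

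**Figure D2:**
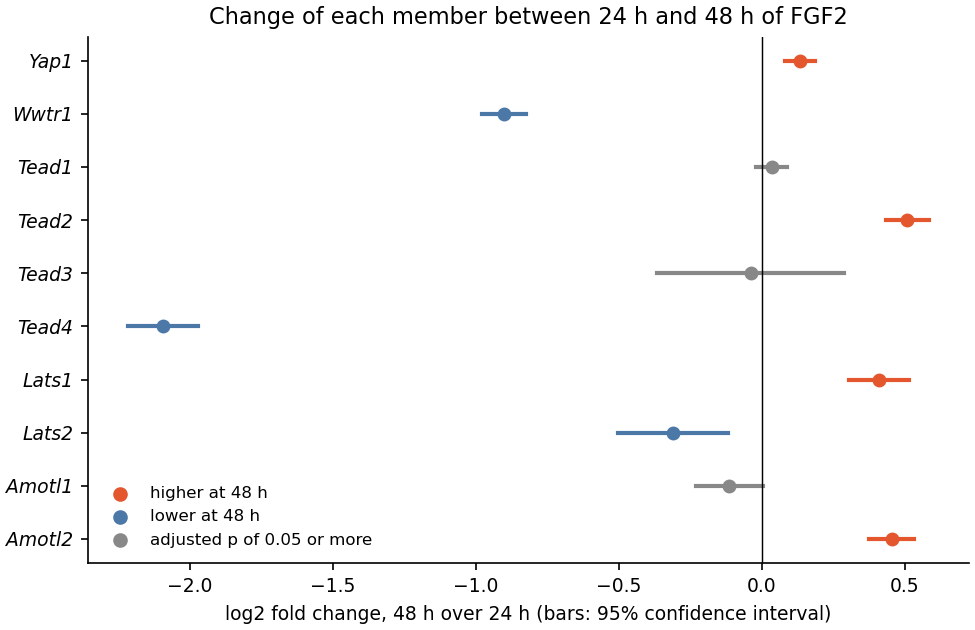
Log2 fold change of each of the 10 genes, 48 h over 24 h, with bars for the 95% confidence interval from the edgeR fit. The interval of Tead4 lies from -2.22 to -1.97, and the intervals of Tead1, Tead3 and Amotl1 include 0.

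The makeup of the TEAD family changed more than its sum. In level per kilobase of exon, the 4 genes summed to 135.3 ± 3.47 at 24 h and 134.8 ± 2.72 at 48 h (SD, n = 3 each), and the libraries of the 2 times overlapped. Tead4 made up 26.0% ± 0.54 of this sum at 24 h and 6.04% ± 0.30 at 48 h. Tead2 made up 48.2% ± 1.53 at 24 h and 67.8% ± 0.48 at 48 h. The share of Tead1 was 24.4% ± 1.13 and 24.7% ± 0.38, and that of Tead3 1.44% ± 0.31 and 1.39% ± 0.07. Tead2 was thus the leading TEAD gene by this measure at both times. Tead4 was just above Tead1 at 24 h (just below it with the longest coding transcript as length) and well below it at 48 h. With the longest coding transcript as length the sum was 156.9 ± 4.63 at 24 h and 160.4 ± 2.81 at 48 h, again with overlap, and Tead4 went from 22.6% to 5.06%.

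The log2 ratio of Tead4 to Tead2 CPM, which needs no library scaling, was -1.37, -1.30 and -1.22 at 24 h and -3.98, -3.86 and -3.83 at 48 h, a 6.03-fold fall. The ratio of Tead1 to Tead2 fell 1.39-fold and that of Tead3 to Tead2 1.44-fold. Tead1 (log2 fold change 0.03) and Tead3 (-0.04, on 66 to 104 counts a library) were not called. Tead2, the shared denominator, rose by 0.51, so these falls reflect mainly the rise of Tead2. None of the 3 ratios to Tead2 overlapped between the times. Each gave p = 0.1 in the exact permutation test (adjusted p = 0.1 over 6 ratios), the smallest value possible.

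**Figure D3:**
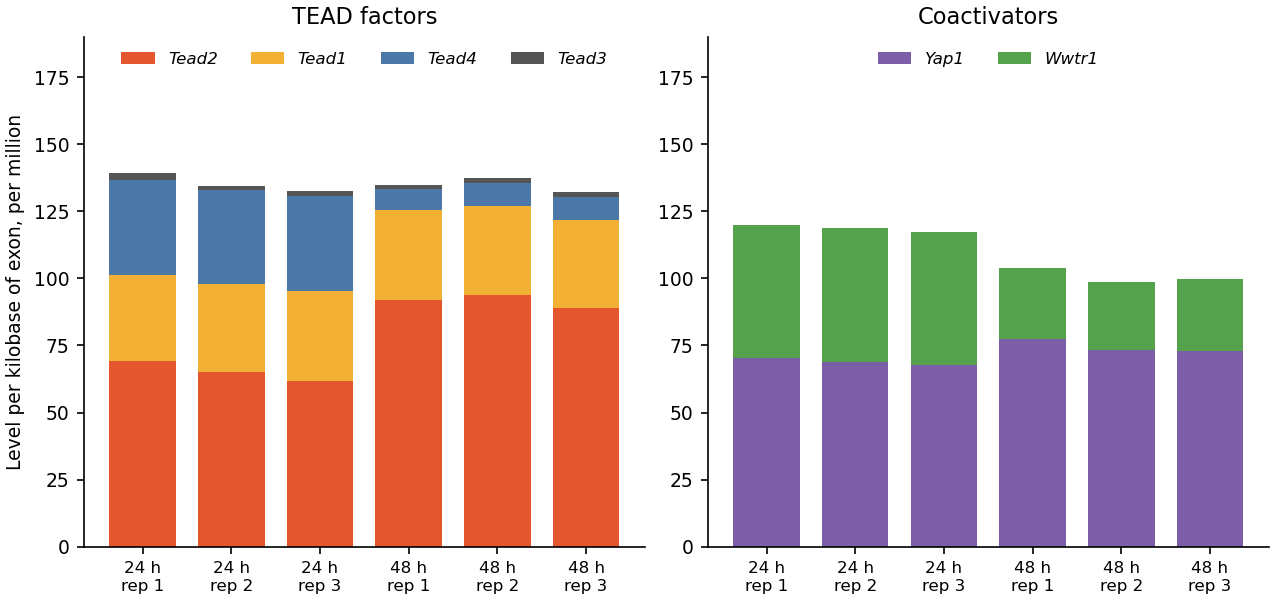
Level per kilobase of exon, with every library scaled to the same total, stacked for the TEAD genes (left) and the coactivators (right) in each of the 6 libraries. The TEAD stacks reach 132.4 to 139.2 at 24 h and 132.1 to 137.5 at 48 h while the Tead4 layer shrinks, and the coactivator stacks are lower at 48 h as the Wwtr1 layer shrinks.

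The kinases that inhibit YAP and TAZ also moved apart. Lats1 (ENSMUSG00000040021; chromosome 10, 7681214 to 7716460, plus strand) had 31.2, 33.8 and 33.8 CPM at 24 h and 41.1, 45.9 and 44.2 CPM at 48 h. Lats1 was higher in every 48 h library, with a log2 fold change of 0.41 ± 0.049 (SE; adjusted p = 1.88e-06, edgeR). Lats2 (ENSMUSG00000021959; chromosome 14, 57689662 to 57758388, minus strand), itself a known target of YAP and TEAD, had 10.5, 12.0 and 12.5 CPM at 24 h and 9.67, 9.69 and 8.84 CPM at 48 h. Lats2 was lower in every 48 h library, though the gap was small beside the spread at 24 h. Its log2 fold change of -0.31 ± 0.09 (SE) was called (adjusted p = 0.00668, edgeR), and the adjusted p ranged from 0.00192 to 0.0381 over the 14 alternative fits. The log2 ratio of Lats2 to Lats1 was -1.57, -1.49 and -1.43 at 24 h and -2.08, -2.23 and -2.31 at 48 h. The ratio fell 1.64-fold without overlap (exact permutation p = 0.1, the smallest value possible). GENCODE M21 places exons of an overlapping locus on the same strand as Lats2 (Gm49361, 2955 bases shared). That locus has no entry among the deposited genes.

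Amotl2 rose and Amotl1 was not called. Amotl2 (ENSMUSG00000032531; chromosome 9, 102716672 to 102733418, plus strand), a scaffold that binds YAP and a known YAP target, had 76.3, 74.7 and 80.1 CPM at 24 h and 111.3, 102.8 and 102.6 CPM at 48 h. Every 48 h library was higher, with a log2 fold change of 0.45 ± 0.037 (SE; adjusted p = 1.85e-08, edgeR). Amotl1 (ENSMUSG00000013076; chromosome 9, 14541966 to 14645056, minus strand), a related scaffold, had 24.6, 25.1 and 24.1 CPM at 24 h and 22.3, 22.2 and 23.7 CPM at 48 h. The Amotl1 libraries did not overlap between the times but came close. Its log2 fold change of -0.11, with an interval from -0.23 to 0.002, missed the threshold (adjusted p = 0.0815, edgeR) and passed it with library size as the only scaling (-0.17, adjusted p = 0.0106). The ratio of Amotl2 to Amotl1 rose 1.48-fold without overlap (exact permutation p = 0.1, the smallest value possible).

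Ordered by level per kilobase of exon, the 24 h libraries ran from Yap1 at 69.0 ± 1.39 and Tead2 at 65.2 ± 3.70 (SD, n = 3), whose ranges overlapped, through Wwtr1 at 49.6 ± 0.12, Amotl2 at 38.3 ± 1.34, Tead4 at 35.2 ± 0.17 and Tead1 at 33.0 ± 0.73. The lower members were Lats1 at 14.1 ± 0.64, Amotl1 at 7.64 ± 0.17, Lats2 at 5.21 ± 0.47 and Tead3 at 1.96 ± 0.46. At 48 h the order was Tead2 at 91.5 ± 2.44, Yap1 at 74.6 ± 2.48, Amotl2 at 51.8 ± 2.63, Tead1 at 33.3 ± 0.29 and Wwtr1 at 26.2 ± 0.85. Lats1 at 18.5 ± 1.01, Tead4 at 8.15 ± 0.42, Amotl1 at 6.97 ± 0.22, Lats2 at 4.16 ± 0.24 and Tead3 at 1.88 ± 0.08 followed. At 48 h no neighbours in the order had overlapping ranges. With the longest coding transcript as length Yap1 stood first at both times, so the order of Tead2 and Yap1 at 48 h depends on the length used. In the order by exon union, Wwtr1 moved down from place 3 to place 5 and Tead4 from place 5 to place 7. By longest coding transcript the moves were smaller, from place 4 to place 5 for Wwtr1 and from place 6 to place 7 for Tead4.

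Tead2 had the largest increase among the members and Tead4 the largest decrease. The tested genes whose log2 CPM profile over the 6 libraries, centred on its mean, lay closest to that of Tead2 were Slc35b4, Folr1 and Mkrn1, at Euclidean distances of 0.05, 0.05 and 0.06. Closest to Tead4 were Nid1, Il34 and Myof, at 0.14, 0.16 and 0.17, with log2 fold changes of -2.11, -2.27 and -2.01. With 2 times this likeness reflects mainly the size of the change.

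The other genes of the pathway, in 6 lists of 86 genes without the members, were then read from the same fit. Of these, 78 were tested and 59 changed (75.6%, against 62.8% of all tested genes), 30 upward and 29 downward. Of the 17 core kinases and adaptors, which act upstream of or beside LATS, 6 rose, 8 fell and 3 were not called, with a median log2 fold change of -0.07. That median was -0.03 without replicate 3 of 48 h and -0.13 with library size as the only scaling. Map4k5 (log2 fold change 0.28) and Stk4 (0.26), the latter encoding an upstream kinase of LATS, rose most. Tnik had 12.2 ± 0.16 CPM at 24 h and 5.35 ± 0.68 at 48 h, a log2 fold change of -1.19 (adjusted p = 2.16e-08, edgeR), and Map4k1 had a log2 fold change of -0.87.

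Of the 15 upstream regulators, membrane and junction proteins that feed into the kinases, 13 were tested, of which 7 rose, 3 fell and 3 were not called. Their median was 0.28. Ajuba, a LIM protein that restrains LATS kinases, rose, with 154.4 ± 2.19 CPM at 24 h, 225.7 ± 2.86 at 48 h and a log2 fold change of 0.55 (adjusted p = 2.23e-12, edgeR). Dchs1, an atypical cadherin, rose by 1.15 on the log2 scale, with 14 to 28 counts a library at 24 h and 38 to 49 at 48 h. Frmd6, the mammalian expanded-like protein, fell, with 34.0 ± 1.21 CPM at 24 h, 12.8 ± 1.97 at 48 h and a log2 fold change of -1.41 (adjusted p = 1.54e-10, edgeR), and Crb3, a polarity protein, had a log2 fold change of -0.88. The counts of Frmd6 were fractional.

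The STRIPAK complex carries a phosphatase that turns off the upstream kinases, and all 16 of its listed genes were tested. Of these 6 rose, 4 fell and 6 were not called, and none changed 2-fold. Mob4 (0.29) and Ppp2r1b (0.21) rose most, and Strn (-0.34) and Sike1 (-0.31) were the called genes that fell most. When libraries were scaled by total count alone, 7 STRIPAK genes were called as lower, and the median of the list turned from 0.02 to -0.04. The 11 genes for retention and turnover of YAP and TAZ include the YWHA adaptors that hold phosphorylated YAP in the cytoplasm and the casein kinases that mark it for degradation. Among them 7 rose, 3 fell and 1 was not called, with a median of 0.06. With library size as the only scaling, 4 rose. Ywhah rose by 0.28 and Csnk1d by 0.25, while Csnk1e had a log2 fold change of -0.62. Sfn, the adaptor known from epithelia, fell, with 9.095 ± 0.66 CPM at 24 h, 2.14 ± 0.02 at 48 h and a log2 fold change of -2.08 (adjusted p = 1.63e-10, edgeR). The counts of Strn, Ywhah and Sfn were fractional.

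Of the 7 nuclear partners, 5 were tested, 1 rose, 3 fell and 1 was not called. Ankrd17, a YAP cofactor, rose by 0.24 on the log2 scale. Vgll4, which competes with YAP for TEAD factors, fell, with 5.996 ± 1.18 CPM at 24 h, 2.83 ± 0.61 at 48 h and a log2 fold change of -1.09 (adjusted p = 3.56e-05, edgeR), and Vgll3 had a log2 fold change of -0.92. Vgll1 and Vgll2 had at most 6 counts in a library and were not tested.

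The last list holds 20 genes of a target signature of YAP, TAZ and TEAD drawn from human tumour data, without its members Lats2 and Amotl2. Of the 16 tested, 3 rose, 8 fell and 5 were not called, with a median log2 fold change of -0.15, beside -0.01 for all tested genes. The share called was 68.8%, near the 62.8% of all tested genes (30.9% as higher and 31.9% as lower). The median of the signature was -0.09 with no filter on low counts, -0.11 without replicate 2 of 24 h and -0.21 with library size as the only scaling. Myof, a membrane repair protein, fell, with 177.9 ± 5.34 CPM at 24 h, 44.3 ± 0.23 at 48 h and a log2 fold change of -2.01 (adjusted p = 1.6e-17, edgeR). Nt5e, an ectonucleotidase, fell, with 2.845 ± 0.425 CPM at 24 h, 0.58 ± 0.14 at 48 h and a log2 fold change of -2.29 (adjusted p = 4.46e-07, edgeR). Its counts were low, at 50 to 68 a library at 24 h and 10 to 16 at 48 h. Gadd45a, a stress response gene, rose, with 27.6 ± 0.52 CPM at 24 h, 56.6 ± 2.13 at 48 h and a log2 fold change of 1.04 (adjusted p = 2.34e-12, edgeR), and Ptpn14, a phosphatase that binds YAP, rose by 0.40.

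Ccn2 and Ccn1, the most used readouts of YAP activity, were named after their values were seen. Ccn2 had 27.7, 30.1 and 27.6 CPM at 24 h and 27.3, 25.3 and 27.9 CPM at 48 h, and the groups overlapped (log2 fold change -0.08, interval -0.20 to 0.03, adjusted p = 0.196, edgeR). It was called as lower with library size as the only scaling (-0.14, adjusted p = 0.0306). Ccn1 had 6.66, 7.28 and 7.42 CPM at 24 h and 7.46, 6.77 and 8.44 CPM at 48 h, also with overlap (0.08, interval -0.14 to 0.31, adjusted p = 0.505, edgeR). Ankrd1 had 0 counts in every library. The signature thus held called genes in both directions beside uncalled ones, and at an adjusted p under 0.01 5 of its genes fell.

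**Figure D4:**
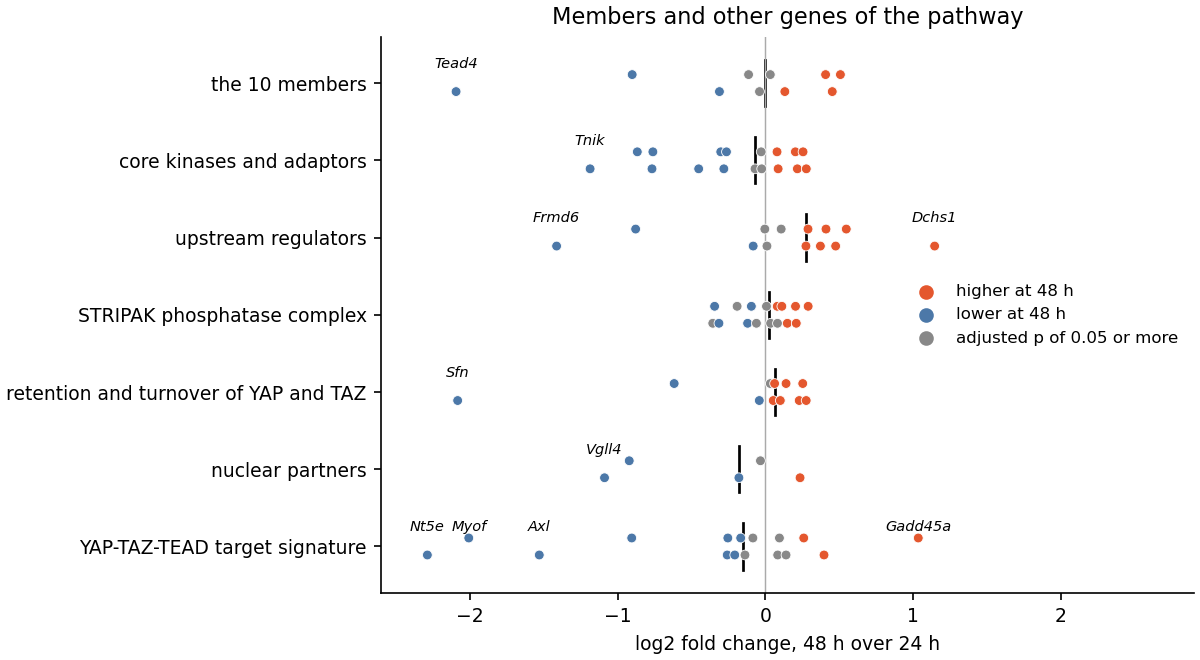
Log2 fold change, 48 h over 24 h, of the 10 members and of the tested genes in the 6 other lists. Each point is a gene, coloured by its call, black lines are list medians and genes with a change of at least 2-fold are labelled. The list medians lie between -0.18 (nuclear partners) and 0.28 (upstream regulators).

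Of the pathway genes named, Map4k5, Crb3, Dchs1, Ppp2r1b, Csnk1d, Csnk1e, Gadd45a, Ptpn14 and Ccn2 have exons that overlap those of an antisense gene, and whether the counting used strand is not given in the sources used here.

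Markers of other cells that such cultures can hold were read from the same libraries. In bulk RNA, fewer cells of a type and less RNA per cell cannot be told apart. Of 7 trophectoderm markers 3 were tested, and the summed level went from a range of 28.9 to 31.5 CPM at 24 h to 14.7 to 19.5 CPM at 48 h. Most of it was Tfap2a (23.1 ± 0.98 and 13.3 ± 1.65 CPM) and Plet1 (6.08 ± 0.74 and 3.26 ± 0.59 CPM), both of which fell, with log2 fold changes of -0.80 and -0.90. The third tested gene, Gata3, was not called (0.73 ± 0.09 and 0.49 ± 0.14 CPM). The defining markers Cdx2 and Elf5 had at most 1 and 2 counts in any library. Cdx2 and Krt7 had slightly higher means at 48 h, and Elf5 and Hand1 slightly lower ones. Krt7 and Hand1 had at most 5 counts a library. Of 6 primitive endoderm markers 2 were tested, and the sum went from 6.46 to 8.30 CPM at 24 h to 3.43 to 3.82 CPM at 48 h. Nearly all of this difference was Gata4 (5.84 ± 0.86 and 2.25 ± 0.22 CPM), the list's single called gene, while Gata6 and Foxa2 had slightly higher means at 48 h, on at most 9 and 3 counts a library. The 8 fibroblast markers, included because embryonic stem cells are often kept on feeder cells, summed to 2.54 to 3.35 CPM at 24 h and 2.53 to 3.88 CPM at 48 h, with Lum and Postn at 0 counts in every library. The similar sums held called genes in opposite directions. Col1a1 fell, with 16 to 30 counts a library at 24 h and 4 to 9 at 48 h (log2 fold change -1.76, adjusted p = 0.000654, edgeR). Dcn rose from 0 counts in every 24 h library to 23 to 32 at 48 h. Both genes passed the filter on low counts only through the time at which they were higher. Their calls are therefore not independent of that filter. Tfap2a, Plet1 and Gata4, the called genes of their lists, were thus lower at 48 h, as were Tead4 and Wwtr1. Of all tested genes, 31.9% were called as lower. The part of other cell types in the results for these genes was not tested.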

How the data were processed

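RNA from the 6 samples was made into libraries with a kit that selects mRNA, per the labels' protocols. The deposited table holds expected counts per gene, 1 column per sample, not scaled for depth or length. Per the submitters' processing notes, cutadapt 1.9.1, STAR 2.5.2 and RSEM 1.3.0 were used with build GRCm38; the annotation and use of strand are not given in the sources used here. RSEM splits reads between similar genes, so its counts can be fractional; the 10 members had whole counts in every library. Symbols came from GENCODE M21 (51633 of 51912 identifiers matched) and positions and exon lengths from its annotation of the same build.

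Counts were rounded, filtered with filterByExpr (minimum count 10), scaled by TMM and tested with edgeR 4.0.16 (quasi-likelihood, under R 4.3.3). Time was the model's single term. P-values were adjusted by Benjamini-Hochberg over all 14889 tested genes. The standard error is the size of the log2 fold change divided by the square root of F. Log2 CPM for ratios and profiles used a prior count of 2. Ratios were tested by exact two-sided permutation of libraries.

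The members and lists were chosen with earlier results of these data known. Named from each pathway list are the 2 called genes that rose most and the 2 that fell most, taken from those whose mean reached 1 CPM; for Tead2 and Tead4, the members that rose and fell most, the 3 genes with the nearest profile are named. The fit was tested on simulated counts with known changes in 66 or 67 genes of each size among 14889, far fewer than changed in the data. It recovered 40.9% of log2 changes of 0.25, 68.7% of those of 0.5 and 77.6% of those of 1. Among genes of at least 3 CPM these shares were 55.1%, 88.5% and 100%. Small changes can thus be missed. With so few changed genes an adjusted p below 0.05 is harder to reach than in the data. These shares therefore do not carry over to the data. Alternatives were other scalings, filters, DESeq2 1.42.0, limma 3.58.1 (voom), unrounded counts, a replicate block, a stricter threshold, other gene lengths and leaving out each library.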

Additional observations from a re-analysis of the deposited data

How the results depend on the processing

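In each of the 14 alternative fits the 7 called members were called again in the same direction, with adjusted p-values of at most 0.0381, and all 7 passed an adjusted p of 0.01 as reported. Library size as the only scaling also called Amotl1 (-0.17) and gave 8 called members; it moved the median of all genes from -0.01 to -0.07 and the share of called genes that were higher from 49.2% to 39.9%. Uncalled values changed sign for Tead1 with that scaling (-0.027), for Tead3 without replicate 1 of 24 h (0.13) or replicate 1 of 48 h (0.0012), where leaving out each library ranged from -0.19 to 0.13, and for Ccn1 without replicate 3 of 48 h (-0.0024), where the range was -0.0024 to 0.16. The same scaling called 7 STRIPAK genes as lower and 4 retention and turnover genes as higher. It took the median of the retention and turnover list from 0.06 to 0.0024, and leaving out each library moved that of the STRIPAK list between 0.0086 (without replicate 1 of 24 h) and 0.04 (replicate 2 of 48 h left out). At an adjusted p under 0.01, 6 retention and turnover genes changed, 4 upward, and 5 target genes fell. With the longest coding transcript as length, the shares at 24 h and 48 h were 50.3% and 68.4% for Tead2, 22.6% and 5.06% for Tead4, 2.59% and 2.41% for Tead3, 75.2% and 86.1% for Yap1 and 24.8% and 13.9% for Wwtr1, and Tead1 was at 24.1% at 48 h. With the replicate block 9235 genes changed, against 9345 without it, and it changed no member's call. Same-numbered libraries did not deviate together (correlations of -0.05, -0.04 and -0.01), so the replicate numbers were not taken as pairs. The number of genes called ranged from 7986 (DESeq2) to 9792 (no filter on low counts) over the alternative fits. The 8 untested pathway genes had at most 7 counts in any library, and Tead3 had 66 to 104, with scattered 24 h libraries.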

Other observations

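The fibroblast marker Dcn, which encodes the matrix proteoglycan decorin, had 0 counts in every 24 h library and 23 to 32 counts in the 48 h libraries, 1.22 ± 0.20 CPM (SD, n = 3). It was chosen for mention after its values were seen. Of the other collagen and matrix genes of that list, Col1a1 had at most 30 counts in any library, Col1a2 at most 9 and Col3a1 at most 2.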
